A study of Mus musculus with 2 samples.

Results

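The genes described here encode chemokines, cytokines, prostaglandin enzymes, acute phase proteins and regulators of inflammatory signaling. They are given as signals in 2 kinds of cultured mouse cartilage cells. The list held 42 genes, and every probe set annotated to one of them alone was taken, which gave 66 probe sets of 39 genes among the 18193 genes named on the array. *Il1rl1*, *Ptgs1* and *C3* had no probe set annotated to them alone and were not analysed here. Superficial zone (SFZ) cells came from the surface layer of articular cartilage of the femur and tibia, and costal chondrocytes (CC) from rib cartilage. Both came from ICR mice at postnatal day 4 and were cultured in DMEM with fetal bovine serum, with no other treatment named. Total RNA was hybridized to 1 Affymetrix mouse genome array per cell type. Thus no difference has a replicate check, and the differences are described without a test. How many mice gave each RNA is not given in the sources read, and the rib cells were those freed by collagenase. Joint against rib and surface zone against other cartilage differ together in this design and cannot be told apart.

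Chemokines are small secreted proteins that attract leukocytes through receptors coupled to G proteins, and are grouped by the spacing of their first cysteines into the *Ccl* and *Cxcl* families. In cartilage, interleukin-1, tumor necrosis factor and interleukin-6 are known for raising matrix-degrading enzymes, prostaglandin E and nitric oxide in chondrocytes. Much of this response runs through the transcription factor NF-κB, which also induces its own inhibitors.

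Signals are MAS5 values on a linear scale, 1 for each probe set, which is a set of short oligonucleotides that reads the 3′ end of a transcript. Signals of different probe sets are not on a common scale, so only the 2 arrays were compared, probe set by probe set. A background level, the 95th percentile of 87 probe sets of odorant, taste and vomeronasal receptors, was 28.2 for SFZ cells and 26.0 for CC. If the dimmer of a pair of signals did not exceed it, the fold is a lower bound against that level. For a gene above background on 1 array only, this filter nearly fixes the side of its ratio in counts above and below 0. The median signal was 28.1 in SFZ cells against 32.0 in CC. For the 12481 genes whose brightest probe set was above background on at least 1 array, the median log2 SFZ/CC ratio was -0.18. Scaling both arrays to the same median moved it to 0.00, and quantile normalization to 0.02. The actin gene *Actb* had 7578 in SFZ cells against 9338 in CC, and *Prg4*, the lubricin gene of the joint surface, had 323 in SFZ cells against 73.6 in CC. Of 7 superficial zone markers *Prg4* alone passed in SFZ cells, and *Thbs4*, at 108 in SFZ cells against 388 in CC, passed in CC. *Clu* had 408 in SFZ cells against 749 in CC on its brightest probe set, which did not pass, but passed in CC on another. *Gdf5*, the joint growth factor gene, had 93.1 in SFZ cells against 74.2 in CC and did not pass. By RT-qPCR, another measure, the study reported high *Gdf5* in SFZ cells and very little in CC. Chondrocyte markers were present on both arrays, with all 14 above background, such as *Acan*, the aggrecan gene, at 7772 in SFZ cells against 5588 in CC. Of the 14, 2 passed in SFZ cells and none in CC, against 1.37% and 6.17% of all named genes. The 2 were *Matn1*, at 9989 in SFZ cells against 2692 in CC, and *Col9a3*, at 7799 in SFZ cells against 3668 in CC. The median log2 ratio of the 14 was 0.30, with 9 above 0 and 5 below it.

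A gene counted as higher in a cell type where any of its probe sets had a signal over 100 there and over 2 times that of the other array, the thresholds the study used for SFZ cells. None of the 39 genes was higher in SFZ cells, whereas 1.37% of all named genes were. In CC 15 of the 39 genes, or 38.5%, were higher, against 6.17% of all named genes. By probe set, 0 of 66 passed in SFZ cells, against 0.947% of all named probe sets, and 23 of 66, or 34.8%, passed in CC, against 4.33%. Of the calls of all genes in either direction, CC held 81.9%, or 67.7% once the arrays had equal medians and 62.2% once they were quantile normalized. Under these scalings the listed genes kept 14 of the 15 calls in CC, all but that of *Ptgs2*, and gained none in SFZ cells.

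The 15 genes were *Ccl2*, *Ccl7*, *Ccl9*, *Cxcl1*, *Cxcl5*, *Cxcl12*, *Il6*, *Il33*, *Il1r1*, *Il1rn*, *Il4ra*, *Tnfaip6*, *Nfkbia*, *Ptgs2* and *Saa3*. A further 16 genes were above background on at least 1 array and did not pass, and 8 were at or under background on both arrays. In medians each gene was represented by its brightest probe set, by mean log2 signal over both arrays. Over the 31 genes above background, with signals raised to background so that some ratios are bounds, the median log2 ratio was -1.11, with 26 below 0 and 5 above it, while *Cxcl10* moved to 0.00 under equal medians and quantile normalization and *Lif* to 0.05 under the second of these. The 5 were *Icam1*, *Cxcl2*, *Csf1*, *Tnfaip3* and *Il1b*. *Ccl3*, *Ccl25*, *Cxcl10*, *Cxcl13*, *Il6*, *Il33* and *Il4ra* were above background in CC only, and *Cxcl2* in SFZ cells only. The side of such ratios was nearly fixed by the filter, so they add little to these counts. With 64 added to both signals, which damps ratios of dim probe sets, the median was -0.49.

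**Figure D1:**
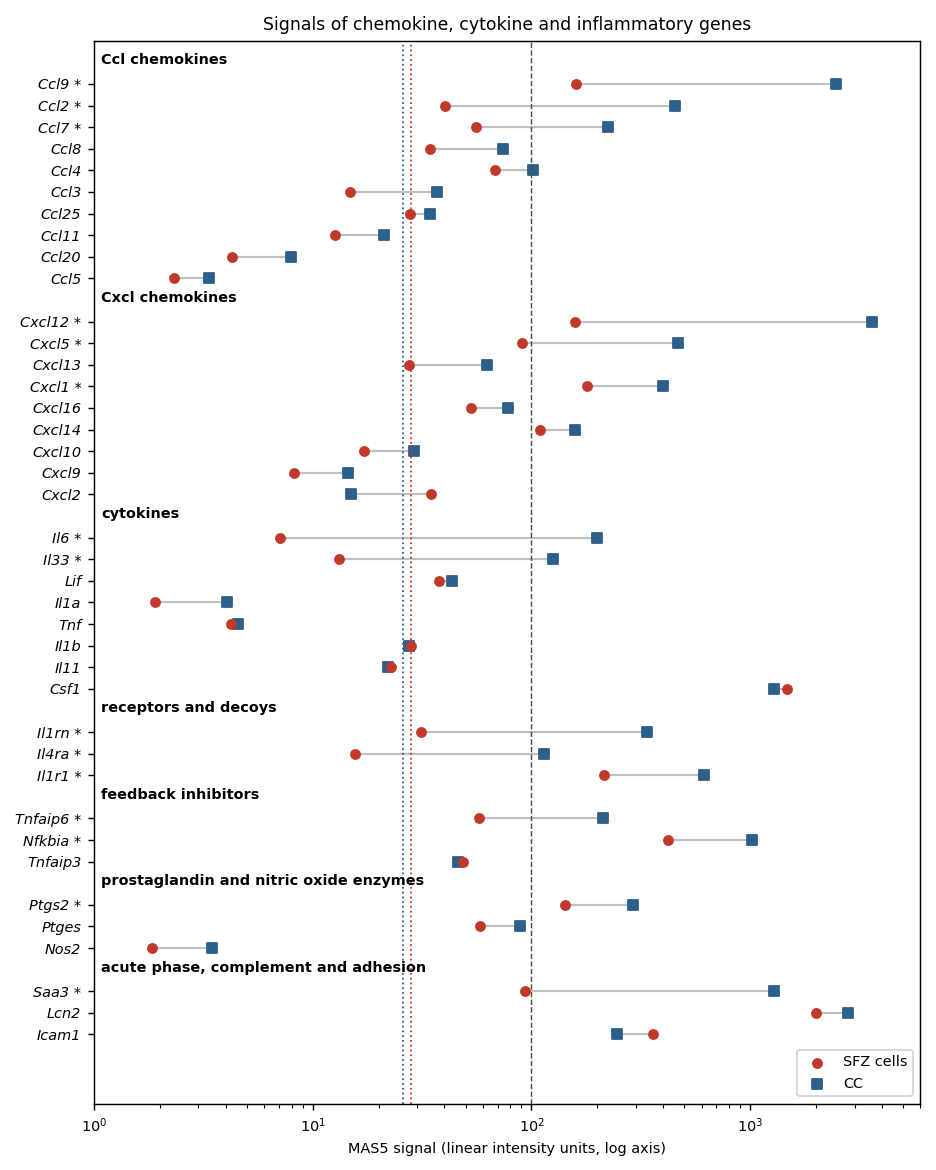
MAS5 signals on a log axis of the 39 measured genes, on the brightest probe set of each, with circles for the SFZ array and squares for the CC array. Dotted lines stand at background, 28.2 and 26.0, the dashed line marks the minimum of 100, and an asterisk marks the 15 genes past the thresholds in CC. *Cxcl12* gave 159 in SFZ cells against 3600.4 in CC, while *Icam1* had 358 in SFZ cells against 247 in CC.

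Markers of several other cell types were higher in CC. Of all named genes, 6.17% were higher in CC and 1.37% in SFZ cells. In lists this short, no call in SFZ cells is close to that share. Of 16 macrophage markers 5 passed in CC and none in SFZ cells, and 8 were above background in SFZ cells against 12 in CC. The 16 signals summed to 651 in SFZ cells, against 2664 in CC. *Aif1*, *Cd163* and *Itgam*, which are also macrophage genes, were under background on both arrays. Of the 13 markers above background on at least 1 array, 12 had a log2 ratio below 0 and 1 above it. The 1 was *Spi1*, at 32.9 in SFZ cells and under background in CC. *Mrc1*, *Mpeg1*, *Tyrobp*, *Fcer1g* and *Ms4a7* were above background in CC only. The filter nearly fixed the side of their ratios and of that of *Spi1*. *Lyz2*, the lysozyme gene of macrophages and neutrophils, had 232 in SFZ cells against 1432 in CC, and *Adgre1*, which encodes the macrophage surface protein F4/80, had 44.1 in SFZ cells against 109 in CC. *Cd14* gave 55.1 in SFZ cells against 228 in CC, and *Mrc1* was under background in SFZ cells and at 137 in CC. Of 14 markers of other leukocytes, 5 were above background on at least 1 array, 2 passed in CC and none in SFZ cells. The 14 signals summed to 173 in SFZ cells against 757 in CC. The 2 that passed were *S100a8* and *S100a9*, genes abundant in neutrophils. They were under background in SFZ cells and at 373 and 204 in CC, most of the CC sum. *Elane*, another neutrophil gene, was under background on both arrays, and the T cell gene *Cd8a* had 54.9 in SFZ cells against 35.1 in CC. *Ptprc*, a gene of all leukocytes, was under background at 18.1 in SFZ cells and just above it at 29.8 in CC. All 10 skeletal muscle markers above background passed in CC, as did 5 of 6 adipocyte markers and 8 of 12 fibroblast markers. *Actc1*, a muscle actin gene, had 28.7 in SFZ cells against 8228 in CC, and *Fabp4*, a fatty acid carrier gene of fat cells, had 42.7 in SFZ cells against 6039 in CC. Summed signals were 243 in SFZ cells and 29627 in CC for muscle markers, 1041 in SFZ cells and 11453 in CC for adipocyte markers, and 35175 in SFZ cells and 47730 in CC for fibroblast markers. Because probe sets are not on a common scale, each sum is led by its brightest probe sets. In these bulk samples fewer cells of a type and less RNA per cell cannot be told apart. The part of these cells in the ratios of the inflammatory genes was not tested.

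Among the 10 *Ccl* chemokine genes, 3 were higher in CC, and all 7 above background had a log2 ratio below 0, with a median of -1.11. Of these, *Ccl3* and *Ccl25* were above background in CC only, which nearly fixed the side of their ratios. *Ccl9*, encoding a mouse chemokine of myeloid cells, had 159 in SFZ cells against 2465 in CC, 15.5-fold lower in SFZ cells. Its second probe set gave 97.6 in SFZ cells against 1820.3 in CC. *Ccl2*, encoding the monocyte attractant MCP-1, had 40.4 in SFZ cells against 453 in CC, 11.2-fold lower in SFZ cells. *Ccl7*, which encodes a further monocyte attractant, gave 55.8 in SFZ cells against 224 in CC, 4.02-fold lower in SFZ cells.
*Ccl8*, another attractant of monocytes, had signals of 34.2 in SFZ cells against 73.7 in CC, a ratio past 2 with the CC signal under the minimum. *Ccl4*, a chemokine of activated macrophages and lymphocytes, had 67.8 in SFZ cells against 101 in CC, 1.49-fold lower in SFZ cells. *Ccl3*, closely related to *Ccl4*, was under background in SFZ cells and had 36.8 in CC. *Ccl25*, a chemokine of thymus and gut, was under background in SFZ cells on both of its probe sets, with 34.3 and 40.5 in CC. *Ccl5*, *Ccl11* and *Ccl20*, whose products attract T cells, eosinophils and cells bearing CCR6, were at or under background on both arrays.

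Of the 9 *Cxcl* chemokine genes, 3 were higher in CC, and 7 of the 8 above background had a ratio below 1, *Cxcl10* only without scaling. *Cxcl10* and *Cxcl13* were above background in CC only, which nearly fixed the side of their ratios. *Cxcl12*, encoding the stromal chemokine SDF-1 that retains blood stem cells in bone marrow through CXCR4, gave 159 in SFZ cells against 3600.4 in CC, 22.7-fold lower in SFZ cells. A second probe set had 67.0 in SFZ cells against 1868 in CC, 27.9-fold lower in SFZ cells, and the third was under background on both arrays. The neutrophil attractant gene *Cxcl5* gave 90.9 in SFZ cells against 469 in CC, 5.16-fold lower in SFZ cells. *Cxcl1*, which also encodes a neutrophil attractant, was measured by 3 probe sets with SFZ signals of 101, 179 and 64.8 and CC signals of 334, 397 and 291. All 3 passed in CC, with SFZ/CC ratios of 0.304, 0.452 and 0.223. On the brightest of them, which can bind several transcripts, the log2 ratio of -1.15 became -0.96 after scaling to equal medians, which no longer passed.
*Cxcl2*, whose product shares the receptor CXCR2 with that of *Cxcl1*, was at 34.9 in SFZ cells and under background in CC. It was thus at least 1.34-fold higher in SFZ cells, under the minimum signal. The B cell chemokine gene *Cxcl13* was under background in SFZ cells and at 62.7 in CC, at least 2.23-fold lower in SFZ cells, and its other probe set was under background in SFZ cells and at 33.9 in CC. *Cxcl14*, a chemokine of epithelia and mesenchyme, had 110 in SFZ cells against 158 in CC on one probe set, and 64.05 in SFZ cells against 62.5 in CC on the other. *Cxcl16*, a membrane-bound chemokine, gave 52.6 in SFZ cells against 77.9 in CC. Of the interferon-induced T cell attractants, *Cxcl10* was under background in SFZ cells and at 29.1 in CC, and *Cxcl9* was under background on both arrays. On the brightest probe set of each gene above background, only *Cxcl2* of this family had a higher signal in SFZ cells.

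**Figure D2:**
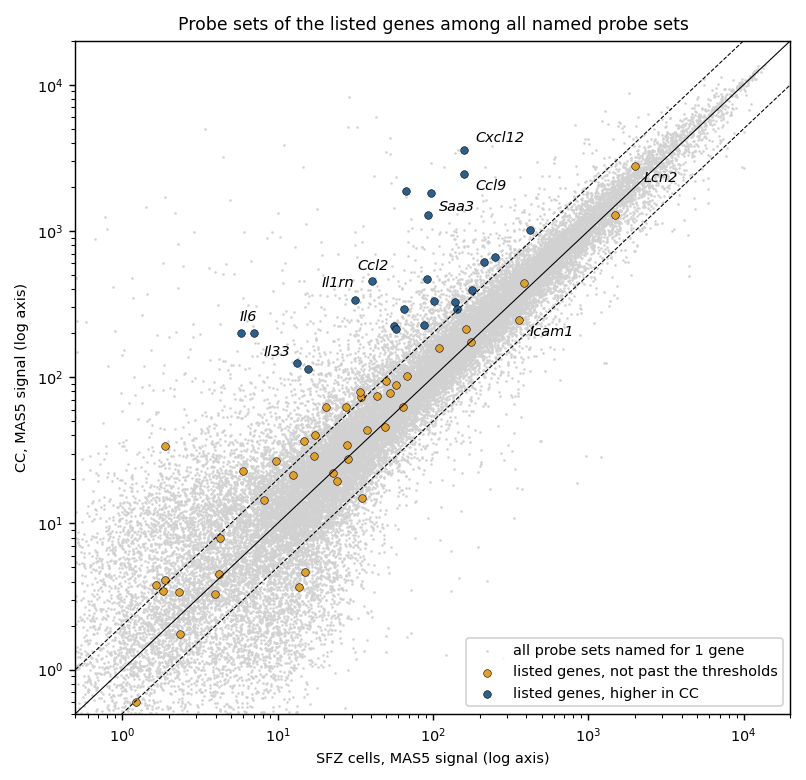
MAS5 signals of SFZ cells (horizontal, log axis) against CC (vertical, log axis), 1 array each. Grey points are all probe sets named for 1 gene, blue points are listed genes past the thresholds in CC and yellow points are listed genes that did not pass. The solid line marks equal signals and the dashed lines a 2-fold difference each way (points under 0.5 are not drawn), and *Cxcl12*, *Ccl9* and *Saa3* lie above the upper line with CC signals of 3600.4, 2465 and 1290.0.

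Promoters are shown for 6 of these genes, with and without the motif given below. Whether the 6 share a response was not tested. The sequences are the 150 bases before the annotated start, from RefSeq on GRCm38.p6, and 31 of the 39 genes had at least 1 promoter in that table. Capitals mark matches to GGGANNNNCC, an NF-κB-like motif searched on both strands, where matches on opposite strands can overlap and merge into a longer run. *Cxcl1*, *Il6* and *Nfkbia* passed in CC and hold matches, and *Cxcl2* did not pass and holds the same merged run of letters as *Cxcl1*. *Cxcl12* and *Ccl9* also passed in CC and hold none in the window.
Cxcl1 (chr5:90891095-90891244, plus strand): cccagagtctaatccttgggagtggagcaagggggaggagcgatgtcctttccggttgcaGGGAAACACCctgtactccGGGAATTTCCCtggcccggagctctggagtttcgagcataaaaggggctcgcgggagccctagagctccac
Cxcl2 (chr5:90903749-90903898, plus strand): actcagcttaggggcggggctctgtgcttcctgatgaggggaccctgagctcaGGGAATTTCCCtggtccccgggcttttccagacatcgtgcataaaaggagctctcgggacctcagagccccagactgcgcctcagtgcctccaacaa
Il6 (chr5:30012964-30013113, plus strand): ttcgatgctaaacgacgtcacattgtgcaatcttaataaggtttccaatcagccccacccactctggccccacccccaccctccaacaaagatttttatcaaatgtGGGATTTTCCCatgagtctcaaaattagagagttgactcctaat
Nfkbia (chr12:55492648-55492797, minus strand): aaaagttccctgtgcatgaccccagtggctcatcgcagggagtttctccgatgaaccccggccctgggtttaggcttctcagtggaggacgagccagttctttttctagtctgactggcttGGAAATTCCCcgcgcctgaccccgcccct
Cxcl12 (chr6:117168385-117168534, plus strand): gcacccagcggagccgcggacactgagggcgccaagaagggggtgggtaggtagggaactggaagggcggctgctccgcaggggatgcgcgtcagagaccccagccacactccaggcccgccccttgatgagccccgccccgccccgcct
Ccl9 (chr11:83578637-83578786, minus strand): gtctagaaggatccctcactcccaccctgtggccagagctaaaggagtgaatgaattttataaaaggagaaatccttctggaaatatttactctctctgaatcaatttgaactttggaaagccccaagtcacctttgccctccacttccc
Over windows of 300 bases, from 250 before to 50 after the start, 20.7% of all 32851 promoters held at least 1 match, and 14 of 38 promoters of the listed genes, or 36.8%, did. By gene, 4 of the 12 genes higher in CC that had a promoter in the table held a match, as did 9 of the 19 others. A match is a description of letters and not a bound site.

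Of the 8 cytokine genes, 2 were higher in CC, with no gene higher in SFZ cells. *Il6*, encoding a cytokine of the acute phase response, was at 7.05 in SFZ cells, under background, and at 199 in CC, at least 7.06-fold lower in SFZ cells. *Il33*, an alarmin of stromal and barrier cells, had 13.2 in SFZ cells against 125 in CC, at least 4.45-fold lower in SFZ cells. Both genes had 1 probe set, and neither reached the stricter minimum of 200.
*Csf1*, encoding the growth factor of macrophages, was close on the arrays. Its 4 probe sets had SFZ signals of 1477, 387, 175 and 164 and CC signals of 1291, 443, 174 and 212, with SFZ/CC ratios of 1.14, 0.874, 1.01 and 0.772. *Lif*, a cytokine of the interleukin-6 family, gave 37.6 in SFZ cells against 43.3 in CC. *Il1b*, encoding interleukin-1 beta, had 28.3 in SFZ cells against 27.6 in CC, both just above background. *Il1a*, *Tnf* and *Il11* were at or under background on both arrays, with *Tnf* at 4.21 in SFZ cells against 4.54 in CC. A difference in these 3 genes was not detectable on these arrays.

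All 3 measured genes for interleukin receptors and their antagonist were higher in CC, and their median log2 ratio, -2.01, is the bound of *Il4ra*. *Il1rn*, encoding the secreted antagonist of the interleukin-1 receptor, gave 31.3 in SFZ cells against 337 in CC, 10.8-fold lower in SFZ cells. Its other probe sets were at 5.85 and 34.1 in SFZ cells, against 199.9 and 79.5 in CC, and the first of them passed. *Il1r1*, encoding the signaling receptor, had 215 in SFZ cells against 612 in CC, 2.85-fold lower in SFZ cells, and its second probe set was under background on both arrays. So receptor and antagonist were both higher in CC, while their ligand genes *Il1a* and *Il1b* were at or near background. *Il4ra*, the shared receptor chain for interleukin-4 and interleukin-13, was under background in SFZ cells and at 114 in CC, at least 4.03-fold lower in SFZ cells. On a second probe set it gave 20.4 in SFZ cells against 63.0 in CC, and the third was under background on both arrays.

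Of the 3 feedback regulators, 2 were higher in CC. *Nfkbia*, encoding the inhibitor IκBα that holds NF-κB in the cytoplasm and is itself an NF-κB target, had 5 probe sets. The SFZ signals were 422, 252, 139, 87.4 and 49.6 and the CC signals 1020.0, 662, 329, 228 and 94.5. The SFZ/CC ratios lay between 0.380 and 0.525, and 4 of the 5 probe sets passed in CC. *Tnfaip6*, encoding the hyaluronan-binding protein TSG-6 that is induced by tumor necrosis factor, had 57.6 in SFZ cells against 213 in CC, 3.70-fold lower in SFZ cells. *Tnfaip3*, which encodes the NF-κB inhibitor A20, gave 48.8 in SFZ cells against 45.9 in CC, and its second probe set was under background on both arrays.

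Among prostaglandin and nitric oxide enzymes, *Ptgs2*, encoding the inducible cyclooxygenase COX-2, had 143 in SFZ cells against 292 in CC, 2.05-fold lower in SFZ cells. Its second probe set gave 43.6 in SFZ cells against 73.8 in CC and did not pass. *Ptgs2* lay nearest to the threshold of the 15 genes, and its log2 ratio of -1.03 became -0.85 with equal medians and -0.76 with quantile normalization, where it did not pass. *Ptges*, encoding a prostaglandin E synthase, had 58.0 in SFZ cells against 88.9 in CC, and its other probe sets were at most 26.7 on either array. *Nos2*, the inducible nitric oxide synthase gene, gave 1.84 in SFZ cells against 3.46 in CC, both under background.

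The acute phase gene *Saa3*, encoding a serum amyloid A protein made outside the liver, had 93.0 in SFZ cells against 1290.0 in CC, 13.9-fold lower in SFZ cells. *Lcn2*, encoding the iron-siderophore-binding protein lipocalin-2, gave 2000.1 in SFZ cells against 2799.6 in CC, 1.40-fold lower in SFZ cells. *Icam1*, encoding an adhesion molecule for leukocyte integrins, had 358 in SFZ cells against 247 in CC, 1.45-fold higher in SFZ cells and short of the ratio of 2. These 3 genes are common targets of inflammatory cytokines, and on these arrays 1 passed in CC and the others passed in neither direction.

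**Figure D3:**
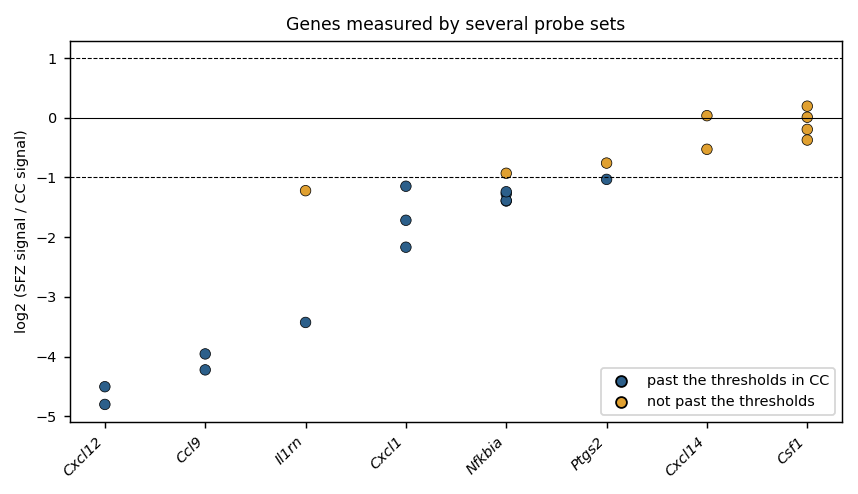
Log2 SFZ/CC signal ratios of the 8 listed genes with at least 2 probe sets above background on both arrays, 1 point a probe set. Dashed lines show a 2-fold difference each way and blue points passed the thresholds in CC. In 6 genes every point lies below 0, and the points of *Cxcl14* and *Csf1* lie on both sides of it.

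Probe sets of the same gene mostly ran the same way. Of 8 genes with several probe sets above background on both arrays, 6 had all ratios below 1 and 2, *Cxcl14* and *Csf1*, had ratios on both sides of it. The 6 had each passed in CC, and in 3 of them, *Ccl9*, *Cxcl1* and *Cxcl12*, every such probe set passed. In the others, *Il1rn*, *Nfkbia* and *Ptgs2*, 1 probe set each did not.

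The other lists held receptors, signaling genes and further mediators. Of all named genes, for comparison, 1.37% passed in SFZ cells and 6.17% in CC. Of 17 chemokine receptor genes measured, 7 were above background on at least 1 array, and only *Ackr3* passed, in CC. It encodes a scavenger receptor for the product of *Cxcl12*, and gave 487 in SFZ cells against 1038 in CC, 2.13-fold lower in SFZ cells. *Cxcr4*, the signaling receptor for the same chemokine, was under background in SFZ cells and at 29.4 in CC. Of 21 cytokine receptor genes 4 were higher in CC, with no gene higher in SFZ cells. *Il13ra1*, which pairs with the product of *Il4ra*, had 58.4 in SFZ cells against 224 in CC, *Lifr*, the receptor gene for leukemia inhibitory factor, had 231 in SFZ cells against 543 in CC, and the macrophage growth factor receptor gene *Csf1r* had 55.6 in SFZ cells against 127 in CC. The median log2 ratio was -0.36 for cytokine receptors and -0.50 for chemokine receptors. Other than *Ackr3*, the chemokine receptor genes had signals under 50 on both arrays on their brightest probe sets. *Ifngr2* passed in CC on a probe set other than its brightest. *Il6st* and *Il6ra*, whose products form the interleukin-6 receptor, did not pass, with *Il6st* at 1333 in SFZ cells against 1782 in CC and *Il6ra* at 109 in SFZ cells against 91.3 in CC.
The NF-κB pathway genes had a median log2 ratio of -0.22, close to the -0.18 of all genes above background. None of 22 was higher in CC, and *Ikbkg* passed in SFZ cells on a probe set other than its brightest. *Rela*, encoding the p65 subunit, gave 543 in SFZ cells against 578 in CC, and *Myd88*, an adaptor of interleukin-1 and Toll-like receptors, had 383 in SFZ cells against 467 in CC. Of the 20 above background, 15 had a log2 ratio below 0 and 5 above it. The lowest, a bound, was that of *Nfkb2*, under background in SFZ cells and at 74.3 in CC. The highest was that of *Tlr2*, at 157 in SFZ cells against 103 in CC. Of 33 other chemokine and cytokine genes, 5 were higher in CC and 1 in SFZ cells, with a median log2 ratio of -0.45. *Ppbp* and *Pf4*, known as platelet chemokine genes, were at 4.43 and 88.4 in SFZ cells and at 130 and 322 in CC. *Ccl12* was under background in SFZ cells and at 106 in CC. *Clcf1*, encoding a ligand of the interleukin-6 family, went the other way at 216 in SFZ cells against 65.4 in CC, 3.30-fold higher in SFZ cells.

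Of 19 other genes of prostaglandin handling, 5 were higher in CC and 1 in SFZ cells, with a median log2 ratio of -0.88. *Ptgr1*, which encodes a prostaglandin reductase, had 54.1 in SFZ cells against 575 in CC, 10.6-fold lower in SFZ cells. *Hpgd*, encoding the dehydrogenase that inactivates prostaglandins, gave 90.4 in SFZ cells against 345 in CC. *Pla2g5*, a secreted phospholipase gene, was under background in SFZ cells and at 126 in CC, and *Ptgds*, encoding a prostaglandin D synthase, had 41.3 in SFZ cells against 104 in CC. *Slco2a1*, the prostaglandin transporter gene, had 178 in SFZ cells against 85.8 in CC and passed in SFZ cells.
Of 21 other complement and acute phase genes, 5 were higher in CC, with no gene higher in SFZ cells and a median log2 ratio of -0.75. *Hp*, encoding the hemoglobin-binding protein haptoglobin, gave 1.89 in SFZ cells against 1708 in CC, at least 60.6-fold lower in SFZ cells. *Serping1*, encoding the inhibitor of the first complement component, had 19.7 in SFZ cells against 498 in CC, at least 17.7-fold lower in SFZ cells. *Vcam1*, an adhesion molecule gene, gave 35.7 in SFZ cells against 354 in CC, and the complement protease gene *C1s1* had 125 in SFZ cells against 462 in CC. *Hp* is also made by fat cells, whose markers were higher in CC, and the part of such cells was not tested.

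**Figure D4:**
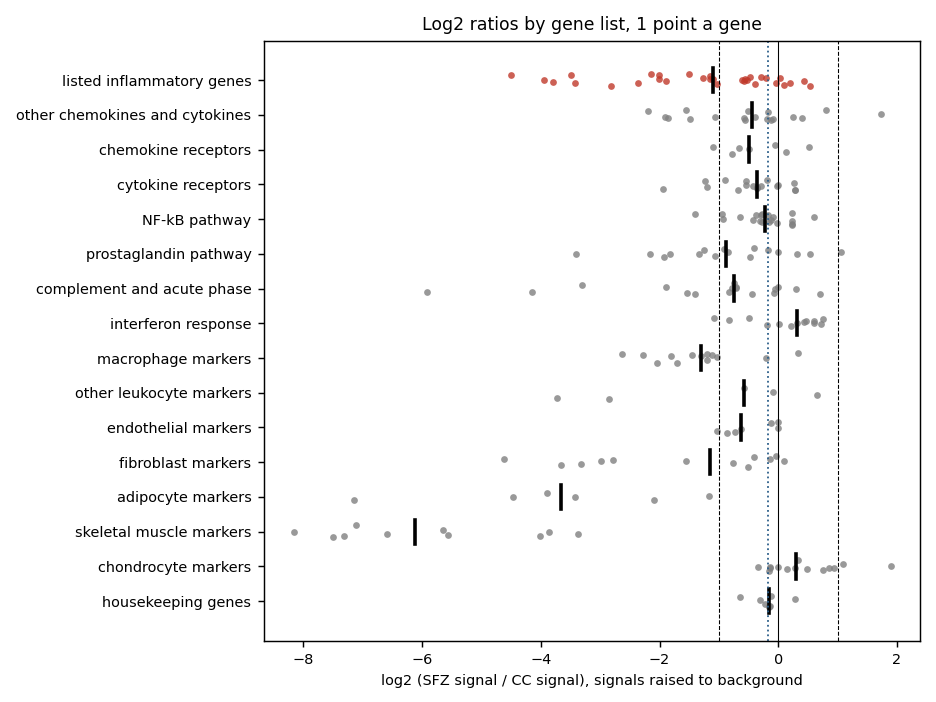
Log2 SFZ/CC signal ratios, 1 array each, of the listed inflammatory genes (red) and of related gene and cell marker lists (grey), with signals raised to background and genes under it on both arrays left out. Bars give list medians, the dotted line the median of all genes, -0.18, and dashed lines a 2-fold difference each way. Medians were -1.11 for the inflammatory genes, -0.22 for the NF-κB pathway, -1.31 for macrophage markers and -6.12 for skeletal muscle markers.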

How the data were processed

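Each cell type was measured on 1 Affymetrix mouse genome array. The values deposited by the authors are intensity signals on a linear scale, made with MAS5 according to the submitters' processing notes, whose version and scaling target are not given in the sources read. Signals were used without further scaling. With so few arrays, their number is what limits precision. The platform annotation gave 1 gene for 34945 of the 45037 probe sets left without controls, several for 932 and none for 9211. All 66 probe sets of the listed genes matched RefSeq by Entrez identifier, with 0 symbols changed.

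The thresholds were a signal over 100 and a ratio over 2. For medians, signals were raised to the background level, and a ratio whose bound fell on the other side of 1 was set to 1. Every listed gene was named, and of most other lists up to 4 genes past the thresholds with the largest ratios. Of the muscle and adipocyte markers fewer were named, and of the fibroblast markers none by this rule. Other genes named, among them *Acan*, *Gdf5*, *Clu*, *Ptprc*, *Elane*, *Cd8a*, *Cxcr4*, *Il6st*, *Il6ra*, *Rela*, *Myd88*, *Nfkb2*, *Tlr2*, *Ccl6*, *Aif1*, *Cd163*, *Itgam*, *Spi1*, *Ifngr2*, *Ikbkg*, *Slco2a1* and genes of the interferon response, were added after their values were seen. The listed genes and the lists were chosen with earlier results of these data known. The counting was tested on simulated data. Alternatives were scaling (equal medians, quantile), the background level as a floor, an added 64, other thresholds, and other rules for probe sets. Python 3.11.15, numpy 2.4.6, pandas 2.3.3 and matplotlib 3.10.9 were used.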

Additional observations from a re-analysis of the deposited data

How the results depend on the processing

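No listed gene or probe set was higher in SFZ cells under any alternative run. The 15 genes higher in CC were 9 if a gene needed all its probe sets to pass, and between 12 and 17 under the other alternatives. Those 9 leave out *Cxcl12*, *Il1r1*, *Il1rn*, *Il4ra*, *Nfkbia* and *Ptgs2*, in part through probe sets under background on both arrays. *Il1r1*, *Nfkbia* and *Ptgs2* did not pass at a ratio over 3, and *Il33*, *Il4ra* and *Il6* did not at a signal over 200. With a minimum of 50, *Ccl8* and *Cxcl13* were added. The 23 probe sets lay between 16 and 27. The median log2 ratio of -1.11 was -0.49 with 64 added to both signals, which shrinks ratios by construction, and -0.92 with equal medians and -0.84 with quantile normalization. Of the log2 ratios of 31 genes, *Cxcl1* and *Ptgs2* on their brightest probe sets no longer passed under equal medians, quantile normalization or 64 added. *Il4ra*, with its SFZ signal raised to background, was at -0.95 with 64 added and no longer passed either, although its signals as deposited passed with 64 added. The other 29 ratios under the scalings, and 28 with 64 added, kept their side of the thresholds. No paired analysis was possible because each cell type had 1 array. Signals near background limit what can be seen of *Tnf*, *Il1a*, *Il1b*, *Il11* and *Nos2*.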

Other observations

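Of 18 genes of the interferon response measured, none passed in either direction, against 1.37% of all named genes in SFZ cells and 6.17% in CC, and the median log2 ratio of the 13 above background was 0.31, with 9 above 0 and 4 below it. *Irf9*, part of the interferon-stimulated transcription complex, had 213 in SFZ cells against 140 in CC, and *Bst2*, an antiviral membrane protein gene, had 171 in SFZ cells against 113 in CC. *Irf1*, a regulator also induced by NF-κB, had 180 in SFZ cells against 322 in CC.

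Chemokine genes sit in clusters, and their order was taken from the RefSeq annotation of GRCm38.p6. For comparison, 6.17% of all named genes were higher in CC. In the run *Ccl2*, *Ccl7*, *Ccl11*, *Ccl12* and *Ccl8*, *Ccl2*, *Ccl7* and *Ccl12* were higher in CC. In the run *Ccl5*, *Ccl9*, *Ccl6*, *Ccl3* and *Ccl4*, only *Ccl9* and *Ccl6* were, 2 neighbours, with *Ccl6* at 64.2 in SFZ cells against 187 in CC. In the run *Cxcl5*, *Ppbp*, *Pf4*, *Cxcl3*, *Cxcl15*, *Cxcl1* and *Cxcl2*, *Cxcl5*, *Ppbp*, *Pf4* and *Cxcl1* were higher in CC. In the run *Cxcl9*, *Art3* and *Cxcl10*, no gene passed in either direction. *Cxcl1* and *Cxcl2* are neighbours whose promoters hold the same run of motif letters. *Cxcl1* had 179 in SFZ cells against 397 in CC on its brightest probe set. *Cxcl2* had 34.9 in SFZ cells, near background, against 14.9 in CC, under the background of 26.0. It did not pass, and its bound is at least 1.34-fold higher in SFZ cells. Related chemokine genes can share sequence, and whether probe sets of one were bound by transcripts of another was not tested.

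Of 10 endothelial markers, none passed in either direction, against 1.37% of all named genes in SFZ cells and 6.17% in CC. In a list this short, no call is close to these shares. On brightest probe sets all 10 were under the minimum of 100 on both arrays, with *Egfl7* highest at 87.0 in CC. The median log2 ratio of the 7 above background was -0.62, with 5 below 0 and none above it. Of the 5, *Cdh5*, *Emcn* and *Cldn5* were above background in CC only, which nearly fixed the side of their ratios. Of 8 housekeeping genes none passed, and their median log2 ratio was -0.16.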
